A study of Homo sapiens with 12 samples.

Results

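The snoRNA host transcripts GAS5, SNHG1, SNHG5, SNHG6, SNHG12, SNHG15, SNHG16 and ZFAS1 are 8 long non-coding RNAs taken from a list of genes known to carry small nucleolar RNAs (snoRNAs) in their introns and to be sensitive to translation and RNA decay. They were found by symbol among the 54127 genes in the count files, and all 8 passed the filter of at least 10 counts in at least 6 libraries that left 14505 genes for testing. Expression came from RNAseq of C4-2 cells, a prostate cancer line derived from LNCaP that responds to androgen, grown in RPMI medium with serum. Cells received DMSO vehicle or 1 µM PBKi (the compound HI-TOPK-032, which inhibits the kinase PBK) for 6 h, with 6 libraries in each group, and the comparison asks how the transcriptome responds to loss of PBK kinase activity. All libraries are of a single cell line. Nothing states that the 6 libraries of a group came from separate cultures, so p-values measure the spread between these libraries, which may be technical.

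A snoRNA host gene is spliced, and its introns are trimmed to release snoRNAs. Box C/D snoRNAs (SNORD) guide 2'-O-methylation of ribosomal RNA and box H/ACA snoRNAs (SNORA) guide pseudouridylation. The spliced exons that remain hold only short reading frames, are translated for a short time in the cytoplasm, and are then removed by nonsense-mediated decay (NMD), so that several of these RNAs accumulate when translation is blocked. Many host genes, like ribosomal protein genes, begin with a terminal oligopyrimidine (TOP) tract, a C followed by a run of pyrimidines, which ties translation of the RNA to growth signalling.

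RefSeq placed 34 snoRNA genes inside the 8 hosts, of which 28 were box C/D and 5 box H/ACA by name. GAS5 held 11, SNHG1 9, SNHG12 4, SNHG16 3, ZFAS1 3 and SNHG5 2, and SNHG6 and SNHG15 held 1 each. SNHG12 (3 of 4) and SNHG15 (1 of 1) held mainly box H/ACA snoRNAs.

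The 100 bases around the annotated start of the canonical GENCODE transcript are shown for 6 hosts, because the TOP tract lies there. They were read from GRCh37 on the transcribed strand, with 50 bases before the start and 50 from it, at chr1:173837078-173837177 (minus strand) for GAS5, chr11:62623345-62623444 (minus) for SNHG1, chr6:86388417-86388516 (minus) for SNHG5, chr7:45026511-45026610 (minus) for SNHG15, chr17:74553807-74553906 (plus) for SNHG16 and chr20:47895129-47895228 (plus) for ZFAS1. Capitals mark the longest run of at least 5 pyrimidines that opens with C and begins within 20 bases of the start.
GAS5: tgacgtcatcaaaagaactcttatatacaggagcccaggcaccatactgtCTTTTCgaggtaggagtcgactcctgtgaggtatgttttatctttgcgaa
SNHG1: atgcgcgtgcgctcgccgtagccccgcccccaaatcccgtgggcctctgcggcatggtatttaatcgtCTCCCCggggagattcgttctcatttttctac
SNHG5: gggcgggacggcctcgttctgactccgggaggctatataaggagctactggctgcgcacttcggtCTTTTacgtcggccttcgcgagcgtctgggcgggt
SNHG15: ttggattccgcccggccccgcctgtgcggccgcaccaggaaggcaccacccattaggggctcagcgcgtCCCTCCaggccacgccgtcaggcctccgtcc
SNHG16: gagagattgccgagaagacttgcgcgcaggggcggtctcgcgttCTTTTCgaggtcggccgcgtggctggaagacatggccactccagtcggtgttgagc
ZFAS1: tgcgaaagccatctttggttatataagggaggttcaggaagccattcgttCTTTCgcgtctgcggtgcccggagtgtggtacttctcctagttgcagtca

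Such a run was found in 6 of the 6 windows, against 46.6% of the 14013 starts of tested genes read in the same way. The windows of SNHG6 and SNHG12 are left out of this count, so the shares do not test the hosts. The 46.6% counts a run that begins anywhere within 20 bases of the start, and no share was taken for a run at base 1. In GAS5 and ZFAS1 the run began at base 1 of the annotated transcript, the place of a TOP tract, and in SNHG16 it began 6 bases before the annotated start. In SNHG5, SNHG1 and SNHG15 the run began at bases 16, 19 and 20. GAS5 and SNHG16 shared the word CTTTTCG at their runs. This word, which was picked by eye from the windows, lay within 20 bases of the start, on the transcribed strand, in 0.178% of starts. The matches describe letters and depend on which start was annotated.

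The snoRNAs with a counted gene that lie inside ZFAS1 and GAS5 are shown for reference to the snoRNA reads described further on. SNORD12C, SNORD12B and SNORD12 lie in ZFAS1 on the plus strand at chr20:47895477-47895565, chr20:47896856-47896946 and chr20:47897220-47897309, and SNORD78 lies in GAS5 on the minus strand at chr1:173834760-173834824 (GRCh37). Capitals mark the words TGATG near the 5' end and CTGA near the 3' end, which belong to boxes C and D.
SNORD12C: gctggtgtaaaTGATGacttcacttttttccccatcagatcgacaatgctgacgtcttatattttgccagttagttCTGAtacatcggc
SNORD12B: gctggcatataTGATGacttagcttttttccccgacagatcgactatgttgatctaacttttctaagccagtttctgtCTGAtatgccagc
SNORD12: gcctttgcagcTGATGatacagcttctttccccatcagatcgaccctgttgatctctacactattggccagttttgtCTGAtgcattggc
SNORD78: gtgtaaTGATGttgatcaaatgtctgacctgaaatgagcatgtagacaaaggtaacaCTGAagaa

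The depth was 9663203 to 28029908 reads on genes per library, with DMSO replicate 5 read in 3 lanes and the other libraries in 4. KLK3, the gene of prostate-specific antigen, marked the cells as prostate epithelium, with a mean of 2959 CPM in DMSO (SD 214, n = 6) and of 1131 CPM in PBKi (SD 241, n = 6). CPM is the count scaled to a fixed library size, here with TMM factors for library composition. The 12 markers of immune cells, fibroblasts and endothelium summed to 22.7 to 28.5 CPM in DMSO and 21.3 to 26.5 CPM in PBKi, nearly all of it from COL1A1 and VWF, and PTPRC, CD3E and CDH5 had at most 3 counts in any library. VWF was lower in PBKi (5.26 ± 1.28 against 3.61 ± 0.596 CPM, SD, n = 6 each, adjusted p = 0.0155 from edgeR), and its part in the results was not tested. The transcript of PBK itself was lower in PBKi (219 ± 37.2 against 165 ± 15.1 CPM, SD, n = 6 each), although an inhibitor of the kinase need not change its RNA.

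All 8 host transcripts had a negative log2 fold change in PBKi, and 6 of the 8 fell by the quasi-likelihood test of edgeR, with the adjusted p under 0.05. ZFAS1, SNHG5, SNHG1, GAS5, SNHG16 and SNHG6 fell, SNHG15 and SNHG12 did not pass the test, and 0 of 8 rose. Among all genes tested, 21.5% were called lower and 20.1% higher. The median log2 fold change was -0.43 over the 8 transcripts and -0.012 over all genes. The 8 were chosen with earlier results of these data known, so the shares describe them and do not test snoRNA hosts in general. In cells measured in bulk, fewer cells that express a transcript and less RNA per cell cannot be told apart. Genes whose 6 PBKi libraries all lay below the 6 DMSO libraries made up 9.68% of all genes, and ZFAS1 and SNHG16 were the 2 hosts of which this was true.

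**Figure D1:**
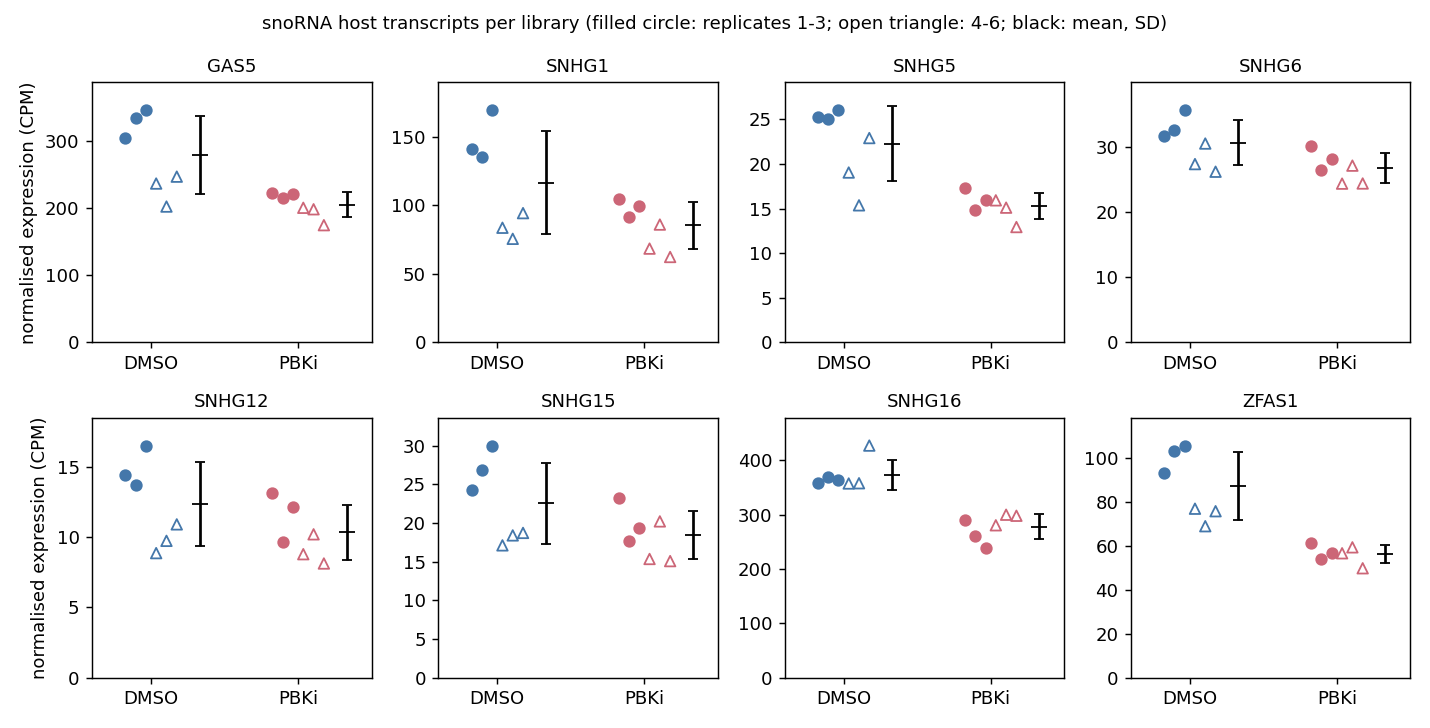
Normalised expression (CPM, vertical axis from 0) of the 8 host transcripts in each library, with 1 panel per gene, filled circles for replicates 1 to 3, open triangles for replicates 4 to 6, and the group mean with its SD in black. PBKi libraries lie below all DMSO libraries for ZFAS1 and SNHG16, and in the other panels DMSO replicates 4 to 6 come close to the PBKi values.

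ZFAS1 (ENSG00000177410), the host of the SNORD12 family, showed the largest fall of the 8. Its 6 DMSO libraries lay between 69.0 and 106 CPM with a median of 85.2, and its 6 PBKi libraries between 49.9 and 61.5 CPM with a median of 56.7. Every PBKi library was below every DMSO library. The log2 fold change was -0.64 (SE 0.095, adjusted p = 3.95e-05 from edgeR), and the two-sided exact permutation test gave p = 0.00216, the smallest value that 924 groupings allow.

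SNHG16 (ENSG00000163597), the host of the SNORD1 group, had 357 to 427 CPM in DMSO with a median of 361, and 239.6 to 300.0 CPM in PBKi with a median of 285. The groups did not overlap. Its log2 fold change was -0.42 (SE 0.064, adjusted p = 4.56e-05 from edgeR, exact permutation p = 0.00216). SNHG16 had the smallest standard error of the 8 and the most counts, 3308 to 10115 per library in DMSO.

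GAS5 (ENSG00000234741), named growth arrest-specific because its RNA accumulates in arrested cells, had 202 to 345 CPM in DMSO with a median of 275, and 174 to 222 CPM in PBKi with a median of 208. The 3 lowest PBKi libraries lay below all DMSO libraries and the other 3 overlapped with DMSO replicates 4 to 6. The log2 fold change was -0.44 (SE 0.11, adjusted p = 0.00371 from edgeR, exact permutation p = 0.0130).

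SNHG5 (ENSG00000203875), the host of SNORD50A and SNORD50B, had 15.4 to 26.0 CPM in DMSO with a median of 24.0, and 12.9 to 17.3 CPM in PBKi with a median of 15.5. DMSO replicate 5, at 15.4 CPM, was the library inside the range of PBKi. The log2 fold change was -0.55 (SE 0.11, adjusted p = 0.000596 from edgeR, exact permutation p = 0.00866).

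SNHG1 (ENSG00000255717), which holds SNORD22 and SNORD25 to SNORD31, had the largest SD relative to its mean among the 8 in DMSO. Its libraries there lay between 75.6 and 170 CPM with a median of 115, and PBKi libraries between 62.3 and 105 CPM with a median of 88.7. The 3 high DMSO libraries were replicates 1 to 3, all above every PBKi library, while replicates 4 to 6 fell inside the PBKi range. The log2 fold change of -0.46 was close in size to that of GAS5 but had a larger error (SE 0.17, adjusted p = 0.0419 from edgeR, exact permutation p = 0.0996). Without DMSO replicate 1, 2 or 3 or PBKi replicate 2, 4, 5 or 6 the log2 fold change was between -0.47 and -0.32 and the adjusted p from edgeR between 0.0620 and 0.121. The call held without each of the other 5 libraries.

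SNHG6 (ENSG00000245910), the host of SNORD87 on chromosome 8 of GRCh37 (67832796 to 67838633, minus strand), changed least of the transcripts that passed the test. It had 26.2 to 35.6 CPM in DMSO with a median of 31.1, and 24.4 to 30.2 CPM in PBKi with a median of 26.8. The groups overlapped over most of the PBKi range. The log2 fold change was -0.20 (SE 0.078, adjusted p = 0.0460 from edgeR, exact permutation p = 0.0498). The call was lost without DMSO replicate 1, 2, 3 or 5 or any of PBKi replicates 2 to 6 (adjusted p from edgeR between 0.0502 and 0.129).

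SNHG12 and SNHG15 did not pass the test. SNHG12 (ENSG00000197989), the host of SNORA16A, SNORA44, SNORA61 and SNORD99, had 8.86 to 16.5 CPM in DMSO with a median of 12.3, and 8.13 to 13.1 CPM in PBKi with a median of 9.94. Its log2 fold change of -0.29 had a 95% interval from -0.58 to 0.0027 (adjusted p = 0.129 from edgeR, exact permutation p = 0.208). SNHG15 (ENSG00000232956), the host of SNORA9, had 17.1 to 30.0 CPM in DMSO with a median of 21.5, and 15.1 to 23.2 CPM in PBKi with a median of 18.5. Its log2 fold change was -0.31 (SE 0.14, adjusted p = 0.0755 from edgeR, exact permutation p = 0.134). Both had wide DMSO ranges, with replicates 1 to 3 high and 4 to 6 low. SNHG15 passed the test without DMSO replicate 4 or 5 or PBKi replicate 1 (adjusted p from edgeR between 0.0327 and 0.0438). When the fit held a term for the replicate set (1 to 3 or 4 to 6), both passed the test, SNHG12 at -0.26 (adjusted p = 0.0286 from edgeR) and SNHG15 at -0.29 (adjusted p = 0.0167). The set was read from these same data and not from a label, so this fit gives no separate support for the calls.

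Replicates 1 to 3 stood apart from replicates 4 to 6 in these transcripts. The labels give no batch, and this division was taken from the second principal component of all genes. In DMSO, 7 of the 8 hosts had all of replicates 1 to 3 above all of replicates 4 to 6, against 13.5% of all genes, and SNHG16 was the exception. The mean log2 difference between the sets was 0.81 for SNHG1, 0.59 for SNHG12, 0.57 for SNHG15, 0.52 for GAS5, 0.45 for ZFAS1, 0.43 for SNHG5 and 0.25 for SNHG6, and -0.06 for SNHG16. For SNHG1, replicates 1 to 3 averaged 149 CPM and replicates 4 to 6 84.6 CPM. This set difference was as large as the fall under PBKi or larger for SNHG1, SNHG12, SNHG15, GAS5 and SNHG6. In PBKi, GAS5 and SNHG1 were the 2 of 8 with all of replicates 1 to 3 above 4 to 6, against 10.5% of all genes. DMSO replicates 1 to 3 had 12750437 to 28029908 reads on genes and replicates 4 to 6 had 9663203 to 14853028, and the part of depth in the difference was not tested.

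Within replicates 1 to 3 alone, 8 of 8 hosts fell, beside 21.3% of all genes in that fit, with log2 fold changes from -0.80 (SE 0.064) for ZFAS1 to -0.23 (SE 0.074, adjusted p = 0.0202 from edgeR) for SNHG6. Within replicates 4 to 6 alone, all 8 values were negative and only ZFAS1 (-0.42, SE 0.087, adjusted p = 0.00577 from edgeR) and SNHG16 (-0.38, SE 0.084, adjusted p = 0.00866) passed the test, beside 8.48% of all genes called lower there. GAS5 had -0.57 (SE 0.057) in the first set and -0.26 (SE 0.090) in the second, and SNHG1 had -0.59 (SE 0.077) and -0.23 (SE 0.12). SNHG16 differed least between the sets, with -0.46 (SE 0.065) and -0.38. When the set was a covariate in the fit over all 12 libraries, 8 of 8 hosts were called lower, beside 25.5% of all genes. As the set was taken from these same data, that count is no separate support. The test of the difference itself, an interaction of treatment with set, called 0% of all genes in edgeR at an adjusted p under 0.05 and 700 genes (4.83%) at an unadjusted p under 0.05. The 8 hosts had adjusted p between 0.927 and 0.955 in it, so none passed after adjustment over all genes. Before adjustment 3 of the 8 were under 0.05, and all 8 had the lower log2 fold change in replicates 1 to 3.

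**Figure D2:**
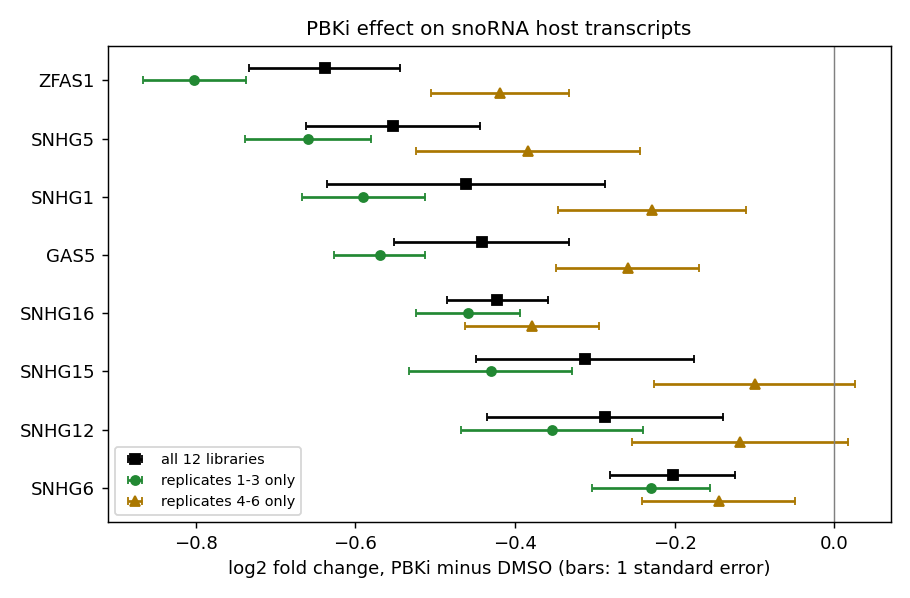
Log2 fold change of PBKi against DMSO (horizontal axis) for each host transcript in all 12 libraries (black squares), in replicates 1 to 3 (green circles) and in replicates 4 to 6 (brown triangles), with bars of 1 standard error. All 24 points lie left of 0, and ZFAS1 lies farthest left in each fit.

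The hosts were compared with each other through the log2 ratio of 2 members within a library, in which depth cancels. Of the 28 pairs, 4 differed between PBKi and DMSO after Benjamini-Hochberg adjustment over the 28, and ZFAS1 fell more in each. The ratio of GAS5 to ZFAS1 rose by 0.20 on the log2 scale (SE 0.047), that of SNHG15 to ZFAS1 by 0.34 (SE 0.082), that of SNHG12 to ZFAS1 by 0.38 (SE 0.10) and that of SNHG6 to ZFAS1 by 0.42 (SE 0.076), each with adjusted p = 0.0303 in the exact permutation test. SNHG16, SNHG5 and SNHG1 were not told apart from ZFAS1. The ratio of SNHG16 to ZFAS1 differed by 0.19 (SE 0.14, exact permutation p = 0.193, adjusted p = 0.316).

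Levels between genes are given per kilobase, from the mean CPM and the median length of the annotated transcripts. In DMSO, GAS5 was highest at 380.1 CPM per kb, followed by SNHG16 at 152, ZFAS1 at 127, SNHG1 at 89.1, SNHG6 at 59.0, SNHG15 at 21.4, SNHG5 at 20.2 and SNHG12 at 11.4. GAS5 did not overlap with SNHG16, nor SNHG6 with SNHG15, while the other neighbours in this order overlapped over the 6 libraries. The order rests on the length chosen. With the canonical transcript SNHG16 had 748 and GAS5 362 CPM per kb, and ZFAS1, with a canonical transcript of 4526 bases against a median of 686, had 19.3.

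Some hosts lie head to head with a protein-coding gene on the other strand, with starts within 1 kb, and such partners with enough reads to test were SLC3A2 for SNHG1 (51 bases away), ZNFX1 for ZFAS1 (248 bases) and ZBTB37 for GAS5 (800 bases). All 3 partners rose while the hosts fell. SLC3A2, the heavy chain shared by several amino acid transporters, had 250 to 295 CPM in DMSO with a median of 269 and 413 to 495 CPM in PBKi with a median of 453. The groups did not overlap and the log2 fold change was 0.74 (SE 0.058, adjusted p = 2.66e-08 from edgeR). ZNFX1, a zinc finger and helicase protein, had 41.6 to 53.7 CPM in DMSO with a median of 47.6 and 84.7 to 104 CPM in PBKi with a median of 97.5. The groups did not overlap and the log2 fold change was 1.02 (SE 0.067, adjusted p = 2.84e-09 from edgeR). ZBTB37, a zinc finger protein, had 5.52 to 8.98 CPM in DMSO with a median of 7.61 and 7.66 to 12.2 CPM in PBKi with a median of 10.9. Its groups overlapped at 1 PBKi library and the log2 fold change was 0.56 (SE 0.13, adjusted p = 0.00201 from edgeR).

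**Figure D3:**
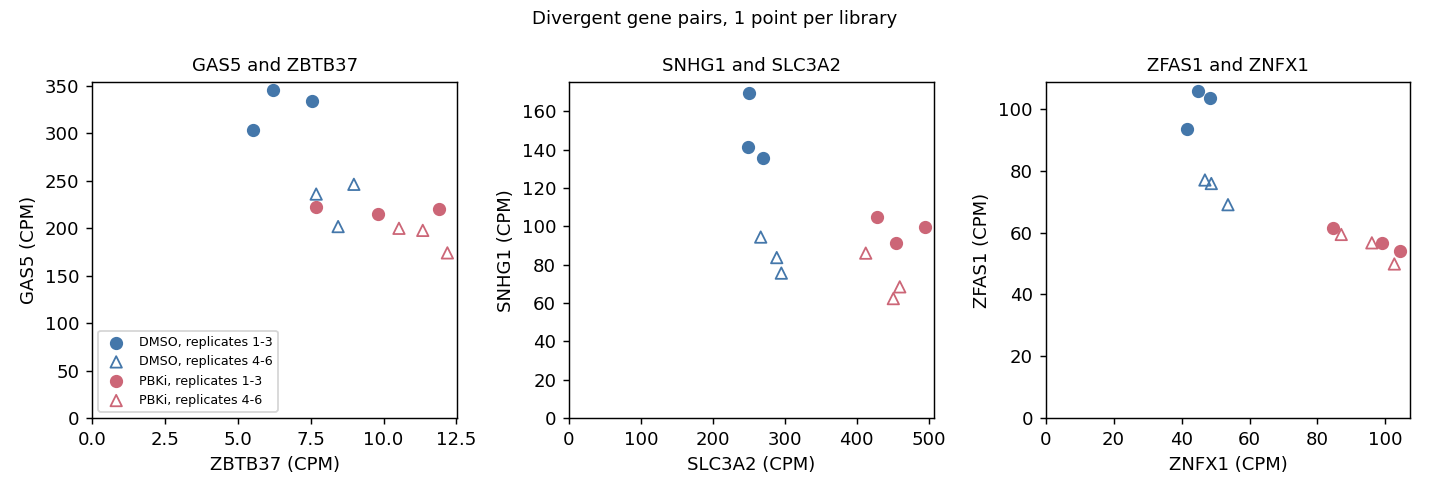
Normalised expression (CPM, axes from 0) of a host transcript (vertical) against its divergent protein-coding partner (horizontal), 1 point per library, blue for DMSO, red for PBKi, filled circles for replicates 1 to 3 and open triangles for 4 to 6. PBKi libraries lie to the right of DMSO libraries without overlap for SLC3A2 and ZNFX1, and lower on the vertical axis without overlap for ZFAS1.

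The log2 ratio of host to partner within a library fell by 1.63 for ZFAS1 to ZNFX1 and by 1.15 for SNHG1 to SLC3A2 (two-sided exact permutation p = 0.00216, adjusted p = 0.00325 over 3 pairs), and by 0.93 for GAS5 to ZBTB37 (exact permutation p = 0.00649, adjusted p = 0.00649). The rise of a partner by itself lowers its ratio, so these values are no separate test of the host. SNHG1 alone had an exact permutation p of 0.0996. Differences were of the same direction in both replicate sets, with -1.90 and -1.35 for ZFAS1, -1.43 and -0.87 for SNHG1 and -1.17 and -0.69 for GAS5. ZFAS1 shares annotated exon bases with ZNFX1. The sources used here do not give the strand setting of the count, so reads in shared bases cannot be assigned to 1 of the 2 genes. MCMDC2, whose annotated exons overlap SNHG6, fell (log2 fold change -0.22, SE 0.075, adjusted p = 0.0251 from edgeR). TRNAU1AP, which overlaps SNHG12, had 0.0063 (SE 0.067, adjusted p = 0.950 from edgeR).

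Reads on the snoRNA genes inside the hosts were few, and counted genes were matched for 6 of the 34 snoRNAs. The libraries were prepared with a kit for messenger RNA, which selects polyadenylated RNA, and mature snoRNAs lack a poly(A) tail. SNORD78 in GAS5 passed the filter with 3 to 36 counts per library in DMSO (median 11.5) and 9 to 18 in PBKi (median 12). It did not pass the test (log2 fold change -0.28, SE 0.36, adjusted p = 0.549 from edgeR). A log2 CPM with 2 counts added to each library, not scaled to depth, had the other sign (0.063, exact permutation p = 0.872). The log2 CPM used for the hosts gave an exact permutation p of 0.758 for SNORD78. At so few counts the sign depends on the measure, so no direction can be given. In DMSO its level was 1.30 to 1.49 CPM in replicates 1 to 3 and 0.252 to 0.433 CPM in replicates 4 to 6, the same order of sets as its host.

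The 3 SNORD12 genes of ZFAS1 had 3 to 26 counts per library together in DMSO (median 7) and 7 to 34 in PBKi (median 10), so that each value carries a large counting error. The log2 CPM of their sum, with the same 2 counts added, differed by 0.35 (exact permutation p = 0.303, adjusted p = 0.606 over 2 hosts). Relative to reads on ZFAS1, they made up 0.411% to 0.985% in DMSO (median 0.505%) and 0.787% to 2.54% in PBKi (median 1.23%). The groups overlapped in part. This log2 ratio was higher in PBKi by 1.06 (SE 0.34, exact permutation p = 0.0173, adjusted p = 0.0346), by 1.20 in replicates 1 to 3 and by 0.92 in replicates 4 to 6. The fall of ZFAS1 (log2 fold change -0.64) by itself raises this ratio, so the value is no separate test of the snoRNA reads. For SNORD78 to GAS5 the ratio differed by 0.58 (SE 0.38, exact permutation p = 0.180, adjusted p = 0.180). SNORD99 in SNHG12 had at most 8 counts and SNORD1B in SNHG16 at most 4, too few to compare.

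Other gene lists of the same pathway are described by their counts in the same edgeR fit, to be read against the 20.1% of all genes called higher, the 21.5% called lower and the median of -0.012. Of 10 other lncRNA hosts of snoRNAs, 2 (20%) were called higher and 2 (20%) lower, close to these shares, with a median log2 fold change of 0.012. EPB41L4A-AS1 fell from 15.0 ± 1.42 to 11.8 ± 0.764 CPM (SD, n = 6 each; -0.36) and SNHG7 from 12.2 ± 1.66 to 9.64 ± 1.39 CPM (-0.35), while SNHG10 rose from 13.8 ± 1.88 to 19.7 ± 2.75 CPM (0.50) and SNHG20 from 9.88 ± 0.980 to 12.7 ± 1.29 CPM (0.36). The lncRNAs that hold no snoRNA had 8 of 16 higher (50%) and 3 lower (18.8%), with a median of 0.14. Among them MALAT1, a nuclear RNA of speckles, rose from 216 ± 61.7 to 396 ± 140 CPM (0.87) and MIR22HG rose by 0.88 on the log2 scale, while CRNDE (-0.35) and DLEU1 (-0.34) fell.

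Protein-coding genes with a TOP start were called lower far more often than higher. Of 75 ribosomal protein genes tested, 74 were called lower and all 75 had a negative value, with a median of -0.34, and RPS21 (-0.52) and RPS14 (-0.51) fell most. Of 18 other protein-coding TOP genes, 13 were called lower and all 18 had a negative value, with a median of -0.24. NAP1L1, a histone chaperone, fell from 1041 ± 60.7 to 591 ± 56.8 CPM (-0.82) and IPO5, an importin, from 606 ± 12.8 to 449 ± 18.8 CPM (-0.43). Of 17 snoRNP proteins and assembly factors, 8 were called lower and the other 9 did not pass the test, with a median of -0.15. Those that fell included the box C/D methyltransferase FBL (289 ± 17.0 to 213 ± 18.3 CPM, -0.44) and the AAA ATPase RUVBL1 (-0.39).

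Of 18 NMD and exon junction factors, 5 were called higher and 3 lower, which are 27.8% and 16.7%, with a median of 0.024. PNRC2 (-0.35), an adaptor of decapping, and RNPS1 (-0.35) fell, and NBAS (0.32) rose. Of 26 general RNA decay factors, 3 (11.5%) were called higher and 9 (34.6%) lower, 22 of 26 values were negative, and the median was -0.13. CNOT8 (-0.42), a deadenylase of the CCR4-NOT complex, and the exosome subunit EXOSC5 (-0.37) fell, and EXOSC6 (0.44) and EDC3 (0.26) rose. Of 12 coding transcripts known as NMD substrates, 2 (16.7%) were called higher and 6 (50%) lower, with a median of -0.12. UPP1, uridine phosphorylase, rose from 1.80 ± 0.344 to 9.76 ± 2.75 CPM (2.45) and GADD45A from 13.3 ± 1.23 to 21.6 ± 1.21 CPM (0.71), while GADD45B (-0.46) and SRSF7 (-0.29) fell.

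**Figure D4:**
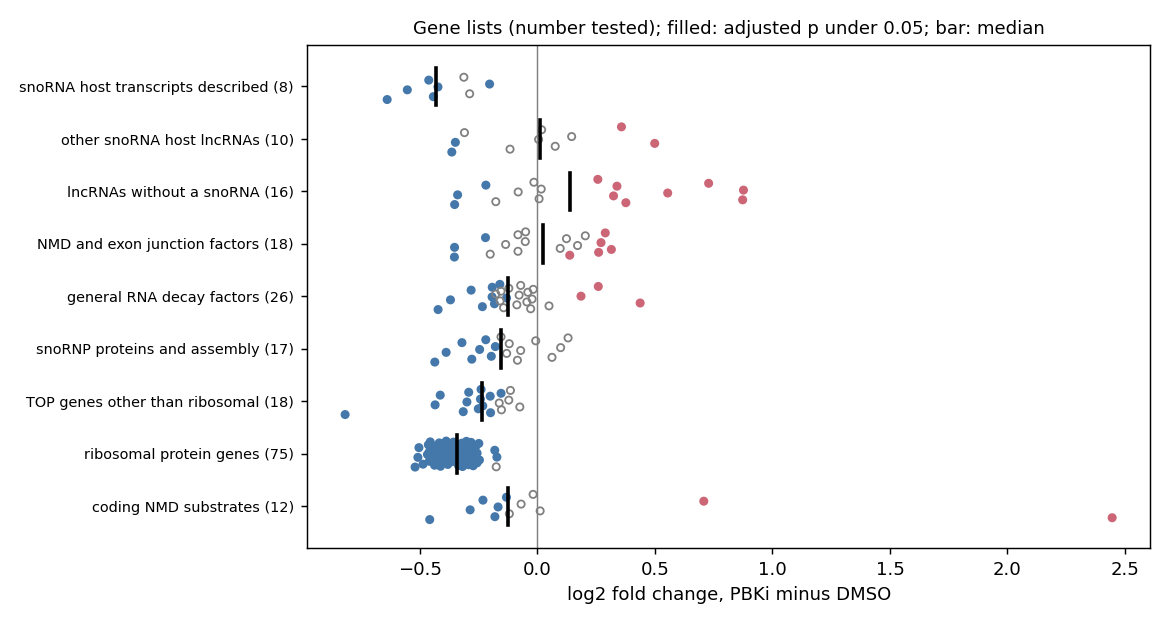
Log2 fold change of PBKi against DMSO (horizontal axis) of each gene tested in the host transcripts and 8 other lists, filled where the adjusted p from edgeR was under 0.05 (blue lower, red higher), grey and open otherwise, with the median as a black bar. The 8 hosts described have the lowest median (-0.43), followed by ribosomal protein genes (-0.34). The 10 other snoRNA host lncRNAs have a median of 0.012.

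Protein-coding genes whose span in RefSeq holds a snoRNA gene had 138 of 429 lower and 74 higher, with a median of -0.036, and 110 of 401 lower with a median of -0.017 when ribosomal protein genes were left out. The other lncRNA genes with a snoRNA in their RefSeq span had 7 of 19 lower and 1 higher, with a median of -0.12. These counts used spans without strand and include genes that hold a snoRNA only by overlap.

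Likeness of profile was measured as the root mean square difference of mean-centred log2 CPM over the 12 libraries, where 0 is the same profile. The gene outside the 8 with the smallest difference was NUF2 for ZFAS1 (0.065), NUP37 for GAS5 (0.056), CETN3 for SNHG5 (0.090), SLC29A2 for SNHG6 (0.052), PRKCI for SNHG16 (0.059) and the pseudogene NSUN5P1 for SNHG1 (0.14). For both SNHG12 (0.093) and SNHG15 (0.10) it was SNHG11, a further snoRNA host. SNHG12 and SNHG15 were nearer to each other (0.089) than to any other gene of the 14505. SNHG12 ranked 2 among all genes by likeness to SNHG1 (0.15). SNHG16 was the least like the rest, with 4011 as the rank of its nearest host, SNHG6 (0.23). These profiles hold the treatment, the replicate sets and the depth of shared libraries.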

How the data were processed

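RNAseq counts of 12 libraries of C4-2 cells were used (6 DMSO, 6 PBKi). The authors aligned 40-base single-end reads to GRCh37 with TopHat2 2.0.4, counted reads per gene with HTSeq 0.5.3p9 and deposited raw counts per lane in 47 files, without normalisation. The strand setting and the count mode are not given in the sources used here. The label for extraction mentions flow-sorted cells, and no sort is described in the study's methods. Lanes were summed per library. HTSeq rows that name no gene were left out. Of these, reads without a feature were 5.74% to 6.96% of reads in DMSO and 5.94% to 9.30% in PBKi. Ambiguous reads were 3.87% to 4.10% in DMSO and 4.16% to 4.35% in PBKi, without overlap. The part of these differences in the results was not tested.

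PBKi was compared with DMSO with edgeR 4.0.16 (R 4.3.3), by TMM and the quasi-likelihood test without covariates. Genes needed 10 counts in at least 6 libraries, and p-values were adjusted by Benjamini-Hochberg over all 14505 genes at 0.05. The procedure was tested on simulated data. Exact permutation tests were two-sided, over 924 groupings of log2 CPM with a prior count of 2, and ratios of snoRNA to host reads used a pseudocount of 0.5. For sums of snoRNA counts the prior count of 2 was not scaled to depth. Symbols and coordinates came from GENCODE 44 mapped to GRCh37 (47098 of 54127 identifiers matched, a newer annotation than that of the authors) and snoRNA positions in hosts from RefSeq (GRCh38.p14), used only for which snoRNA lies in which gene. Named genes were the 8 hosts, snoRNA genes inside them, genes starting within 1 kb or overlapping them, the gene nearest in profile to each, the 2 largest called rises and falls per list, and PBK and KLK3. The members and lists were chosen with earlier results of these data known. Alternatives were DESeq2 1.42.0, limma-voom (limma 3.58.1), RLE and upper-quartile factors, no count filter or 50 counts, lanes 6 to 8 only, a replicate block, replicate sets, stricter thresholds, pseudocounts of 0.5 and 5, and each library left out. The interaction with replicate set was added after seeing the data. The starts of SNHG6 and SNHG12 and some genes that the rule names are not reported here.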

Additional observations from a re-analysis of the deposited data

Results flagged for a closer look

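Among 24 groups of 6 libraries (the hosts, their 3 divergent partners and SNORD78, in DMSO and in PBKi), 1 library stood apart from its group by Dixon's criterion at 95%. SNHG16 in DMSO replicate 6 had 427.2 CPM, while the other 5 DMSO libraries lay between 357.4 and 369.9 CPM. Chance gives about 5% of groups such a library. Without DMSO replicate 6 the log2 fold change of SNHG16 was -0.37 (adjusted p = 8.36e-05 from edgeR).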

How the results depend on the processing

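All 8 log2 fold changes stayed negative and 0 hosts were called higher under every alternative run. The count of hosts called lower (6) was 4 to 7 under other tests, scalings, filters and lanes, 8 with the replicate set as a covariate and in replicates 1 to 3 only, 4 at an adjusted p under 0.01, 2 in replicates 4 to 6 only, 2 when the log2 fold change also had to reach 0.5 in size, and 4 to 7 with 1 library left out. ZFAS1 and SNHG16 had an adjusted p under 0.05 in every fit. With the fold limit, ZFAS1 (-0.64) and SNHG5 (-0.55) were the 2 called lower, and SNHG16 (-0.42) was not. In replicates 4 to 6 only, GAS5 (-0.26), SNHG5 (-0.38), SNHG1 (-0.23) and SNHG6 (-0.14) did not pass. SNHG1 also did not pass with upper-quartile factors (-0.44), a minimum of 50 counts (-0.44), limma-voom (-0.43) or DESeq2 (-0.45), nor SNHG6 with upper-quartile factors (-0.18), no count filter (-0.20), 50 counts (-0.18) or lanes 6 to 8 only (-0.18). SNHG12 and SNHG15 passed with no count filter (-0.29 and -0.31), with the replicate set as a covariate (-0.26 and -0.29) and in replicates 1 to 3 only (-0.35 and -0.43). The cause of these differences was not tested. The fits to replicates 1 to 3 and to replicates 4 to 6 each held 3 libraries a group.

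With 1 library left out, log2 fold changes ranged from -0.51 to -0.37 for GAS5, -0.55 to -0.32 for SNHG1, -0.62 to -0.50 for SNHG5, -0.24 to -0.15 for SNHG6, -0.36 to -0.17 for SNHG12, -0.38 to -0.20 for SNHG15, -0.44 to -0.37 for SNHG16 and -0.69 to -0.58 for ZFAS1. The difference of the GAS5 snoRNA sum changed sign with lanes 6 to 8 only (-0.061) and without DMSO replicate 4 (-0.14), 5 (-0.012) or 6 (-0.14) or PBKi replicate 1 (-0.0089) or 2 (-0.021), within a range of -0.14 to 0.26. The ZFAS1 snoRNA to host ratio stayed between 0.87 and 1.20. Over all genes, the counts called higher and lower were 1303 and 1216 in replicates 4 to 6 only, 1278 and 626 with the fold limit, and 2073 lower at 0.01.

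Same-numbered libraries of the 2 groups shared a number but were not shown to be pairs. Their deviations correlated at 0.0887 to 0.299, over 0.1 in 5 of 6 pairs, and 4 of 6 DMSO libraries correlated best with their own number. With the replicate number as a block, 8 of 8 hosts were called lower by edgeR, with SNHG12 at -0.26 (adjusted p = 0.0208) and SNHG15 at -0.29 (adjusted p = 0.0122) now under 0.05, and 3803 genes lower and 3485 higher in all. Depth limits mainly the snoRNA genes, with few counts per library.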
